A study of Mus musculus with 18 samples.

Results

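The comparison described here set the 3 libraries of Scramble siRNA B against the 3 libraries of Scramble siRNA A, both non-targeting control siRNAs, in Neuro-2a (N2A) cells, a line derived from a mouse neuroblastoma. These 6 libraries were chosen by their labels alone, from the 18 of the series. The other 12 came from cells given siRNA A or B against Fmr1 or siRNA A or B against Zfp598, again with 3 libraries for each siRNA. Fmr1 encodes the RNA-binding protein FMRP, and Zfp598 encodes a ubiquitin ligase that recognises collided ribosomes. All cells were unmodified N2A cells that received a Silencer Select siRNA with Lipofectamine RNAiMAX, and total RNA was taken at 72 h, depleted of ribosomal RNA and sequenced. Neither Scramble siRNA has a stated target, so each gene that differed between them is a difference between controls. The study's text describes the knockdown as done in triplicate for each siRNA, without giving the day or passage of each. The p-values therefore measure only the spread between libraries of the same siRNA. That spread was estimated over all 18 libraries and not from the Scramble libraries alone. An untransfected group was not analysed here, so the data show how the 2 controls differ and not how either differs from untreated cells.

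As background, N2A cells arose from the sympathoadrenal lineage, the neural crest branch that forms sympathetic neurons and chromaffin cells. Such cells carry a core set of transcription factors (Phox2a, Hand2 and others), divide continuously, and can leave the cell cycle and extend neurites. Dividing cells switch on DNA replication genes before S phase and mitotic genes before division, and these genes are read as a measure of cycling. Small double-stranded RNAs can be sensed by innate RNA receptors, which induce interferon-stimulated genes, and an siRNA can also lower RNAs that match its seed.

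The 6 Scramble libraries held 12151589 to 15414590 counts over 55414 features, so depth was similar, and 19003 genes passed the filter on low counts and were tested. Libraries 1 and 3 of Scramble A stood apart from the other Scramble libraries. A single feature with no entry in the annotation took 11.1% and 8.83% of their counts, against 5.00% in library 2 of Scramble A and 5.56% to 5.68% in the Scramble B libraries. Values without these 2 libraries are given beside many of the results that moved. A result given without such a value was not necessarily unchanged. That fit leaves 1 Scramble A library, which is assumed to vary like the other groups, so fewer genes pass it throughout and the fold changes are given beside the p-values. The siRNA targets of the other groups served as a check of the labels. Fmr1 stood at 55.1 ± 4.07 CPM (counts per 1e6 counts, SD, n = 3) with Scramble A and 65.1 ± 3.45 CPM with Scramble B (edgeR adjusted p = 0.142), against means of 18.2 and 26.5 CPM with Fmr1 siRNAs A and B. Zfp598 stood at 117 ± 12.3 CPM and 119 ± 8.37 CPM with the Scramble siRNAs (edgeR adjusted p = 0.884), against 40.5 and 41.6 CPM with Zfp598 siRNAs A and B.

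To describe the baseline of the line, counts were divided by exon length and scaled to a common total (transcripts per 1e6, TPM), which allows levels of different genes to be set side by side. Of 21614 protein-coding genes of the nuclear genome, 12525 had a mean of at least 1 TPM over the 6 libraries, 9201 had at least 10 TPM, 1462 at least 100 TPM and 68 at least 1000 TPM. The 100 highest of them held 23.1% of their summed TPM. Protein-coding genes took 88.8% of the counts and long noncoding RNAs 2.42%.

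Among protein-coding genes of the nuclear genome, the most abundant transcripts were those of translation and the cytoskeleton, with neuronal cytoskeletal genes close behind. Eef2, which moves the ribosome along the mRNA, reached 8052 ± 391 TPM with Scramble A and 9770.1 ± 132 TPM with Scramble B (SD, n = 3 each). Eef1a1, which brings aminoacyl-tRNA to the ribosome, stood at 6978 ± 513 and 6934 ± 209 TPM. The ribosomal protein gene Rps2 stood at 6599 ± 1652 and 7032 ± 209 TPM, and the nuclear long noncoding RNA Malat1 at 6502 ± 355 and 6396 ± 360 TPM. Among tissue-restricted genes, Prph (peripherin, an intermediate filament of peripheral neurons) led with 4048 ± 745 and 2977 ± 115 TPM. Rn7sk, the RNA that holds the elongation factor P-TEFb inactive, was the highest of the annotated genes, at 35341 ± 458 TPM with Scramble A and 20138 ± 4776 TPM with Scramble B. The 3 Scramble B libraries lay below the 3 of Scramble A for Rn7sk, and the difference was -0.87 ± 0.29 on the log2 scale (SE, edgeR adjusted p = 0.035). The mitochondrial gene mt-Co1 was next, at 12272 ± 6296 and 17058 ± 1373 TPM, a difference within the spread of Scramble A.

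The line expressed the markers of its label. Of 30 pan-neuronal markers, 26 had a mean of at least 1 TPM and 9 at least 100 TPM, led by Prph, Uchl1 (a neuronal deubiquitinase), Dpysl3 and Tubb3. Of 25 genes of the sympathoadrenal core circuit, 21 had at least 1 TPM. Ret, the receptor for GDNF-family ligands, stood at 498 ± 39.3 TPM with Scramble A and 884 ± 129 TPM with Scramble B, and Hand2 at 681 ± 68.6 and 545 ± 55.5 TPM. Mycn, the oncogene of many human neuroblastomas, stood at 50.6 ± 8.15 and 70.5 ± 16.3 TPM, and Alk at 70.5 ± 6.49 and 60.0 ± 0.801 TPM. The joint list of catecholamine and acetylcholine transmission was expressed in part: 8 of its 18 genes reached 1 TPM. Th, which makes L-DOPA and is the rate-limiting enzyme of catecholamine synthesis, stood at 7.71 ± 0.568 and 4.31 ± 0.767 TPM, whereas the monoamine oxidases Maoa and Maob and the uptake transporters Slc6a2 and Slc6a3 were at 0 counts in all 6 libraries. Secretory granule genes were present in 14 of 21 cases, with Vgf at 1634 ± 172 and 1825 ± 161 TPM and Scg2 at 613 ± 52.2 and 650 ± 56.9 TPM.

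Markers of other cell types were fewer and mostly lower. Counts of 0 in all 6 libraries were found for the astrocyte genes Slc1a2, Slc1a3, Gja1 and Aqp4, the microglial genes P2ry12, C1qa, C1qb and Itgam, and the fibroblast genes Col3a1, Postn, Lum, Twist1 and Twist2. The epithelial list had 1 of 11 genes at 1 TPM or more, the endothelial list 3 of 10, the astrocyte list 3 of 9, the microglia and blood list 5 of 14 and the fibroblast list 4 of 15. The oligodendrocyte and Schwann list had 7 of 13, with the myelin gene Pmp22 at 128 ± 26.5 and 101 ± 12.8 TPM and the neuregulin receptor gene Erbb3 at 25.1 ± 3.55 and 25.4 ± 0.692 TPM, while its genes Mag and Olig1 were at 0 counts. Members of those lists that were present included Cd74 at 132 ± 17.5 and 125 ± 26.2 TPM and the RNA-binding pluripotency factor Lin28a at 97.4 ± 3.95 and 177 ± 3.12 TPM, while the pluripotency gene Pou5f1 was at 0 counts. Vim (vimentin, an intermediate filament of progenitors and mesenchymal cells) was high, at 808 ± 65.2 and 1707 ± 127 TPM. A few neuronal genes were near 0, among them Rbfox3, Dcx, Nefl and Nefm, each under 1 TPM.

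**Figure D1:**
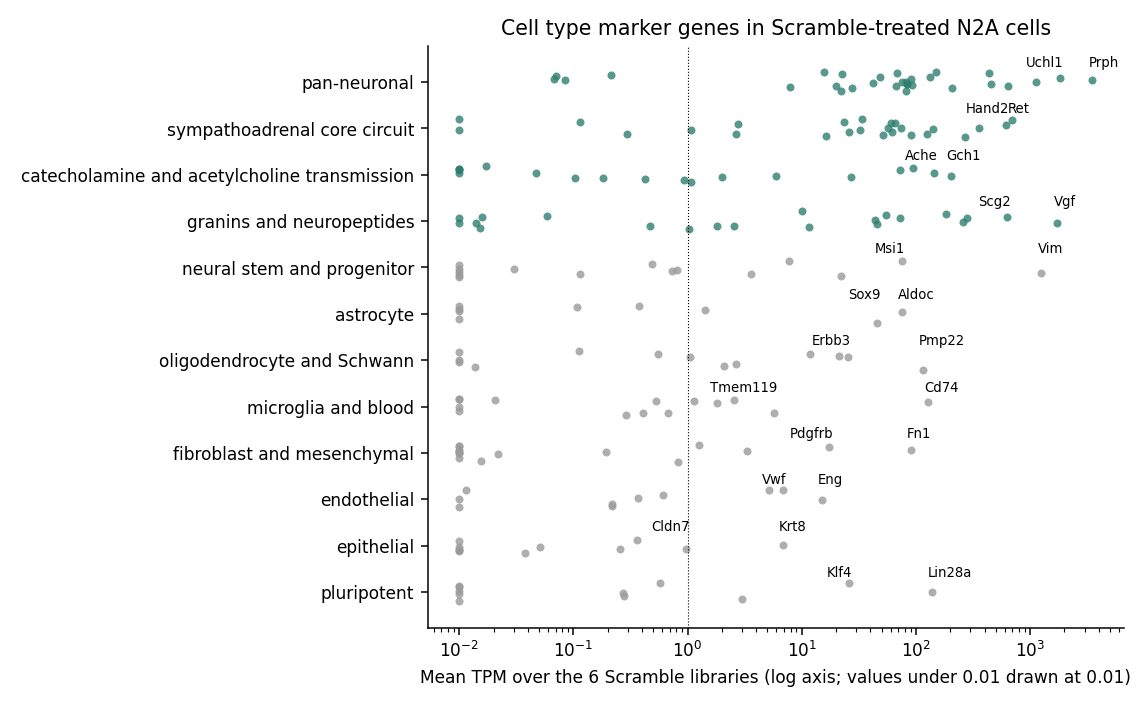
Each point is a marker gene, placed by its mean TPM over the 6 Scramble libraries on a log axis, in a row for each of 12 cell type lists, with values under 0.01 drawn at 0.01. Pan-neuronal and secretory genes reach from under 1 to over 1000 TPM, and sympathoadrenal genes stay under 1000 TPM. Most markers of astrocytes, microglia and blood, fibroblasts, endothelium and epithelium lie left of the dotted line at 1 TPM. In the oligodendrocyte and Schwann row, 7 of 13 genes had at least 1 TPM.

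Genes of many kinds differed between the Scramble siRNAs. The test was the quasi-likelihood F test of edgeR, fitted to all 18 libraries, with p-values adjusted by Benjamini and Hochberg's method over the 19003 genes. A call required an adjusted p below 0.05 together with a change of over 2-fold. By this rule 662 genes were called (3.48% of the genes tested), 268 higher with Scramble B (1.41%) and 394 lower (2.07%). Without the size criterion 1802 genes rose (9.48%) and 2201 fell (11.6%), and these are the shares against which the gene lists below should be read. Without libraries 1 and 3 of Scramble A the calls numbered 129 higher and 199 lower, of which 88 and 162 were among the 268 and 394. In that fit 576 genes rose (2.75% of 20979 tested) and 750 fell (3.58%), the shares to set beside list counts without those libraries. The libraries of the siRNAs did not overlap for 261 of the 268 and for 390 of the 394, where 18.4% of all genes tested lay wholly above with Scramble B and 19.1% wholly below. Many called genes had few reads: fewer than 50 counts per library on average stood behind 129 of the genes called higher and 204 of those called lower. At an unadjusted p under 0.05, 6292 genes (33.1%) differed. Long noncoding RNAs made up 16.4% of the genes called higher and 8.63% of those called lower, against 12.5% of the genes tested.

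Compared with the 15 other libraries of the series, the Scramble B libraries stood apart more often than the Scramble A libraries, both among all genes tested and among the called genes. Of the 268 genes called higher, 89 (33.2%) lay above all 15 others in the 3 Scramble B libraries, and 26 (9.7%) lay below all 15 in the 3 Scramble A libraries. Of the 394 called lower, 92 (23.4%) lay below all 15 with Scramble B and 62 (15.7%) lay above all 15 with Scramble A. Over all genes tested, 3.4% were above and 2.89% below in the Scramble B libraries, and 1.73% above and 1.03% below in the Scramble A libraries. Standing apart requires all 3 libraries to lie beyond the others, which is harder for libraries that differ among themselves. Between pairs of libraries, the chi-square per degree of freedom was 6.455 to 37.93 within Scramble A and 2.783 to 7.26 within Scramble B. It includes the most-counted feature, which took 5.00% to 11.1% of the counts in Scramble A and 5.56% to 5.68% in Scramble B. It is therefore not a measure of the tested genes alone. The shares of genes standing apart do not rank the 2 controls by how far each deviates.

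**Figure D2:**
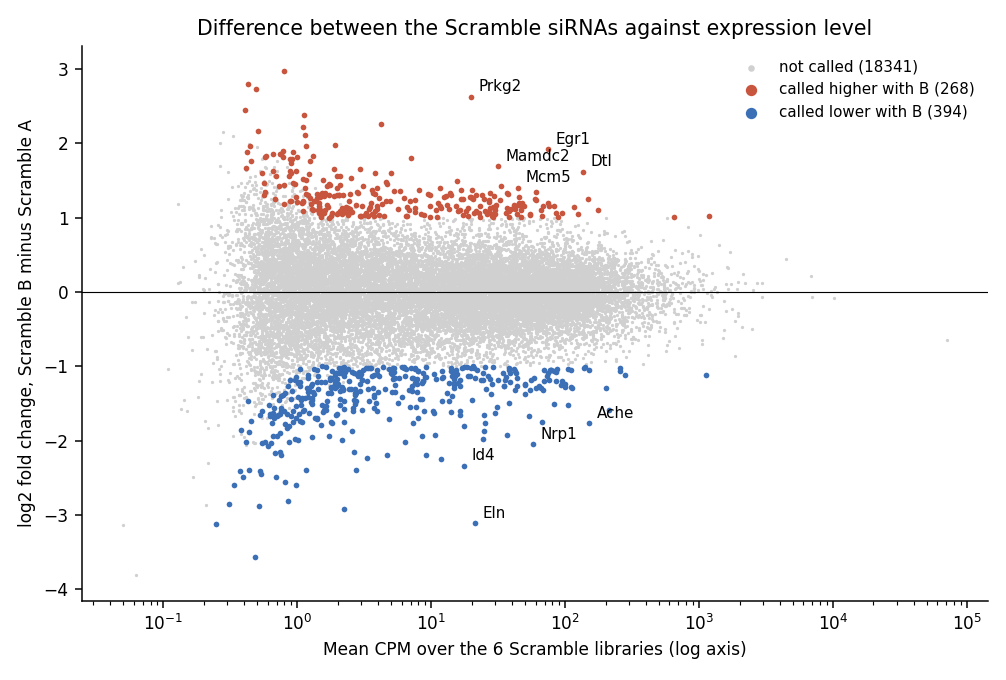
Each point is a tested gene, with its mean CPM over the 6 Scramble libraries on a log axis and its log2 fold change, Scramble B minus Scramble A, on the vertical axis. The 268 genes called higher and 394 called lower are coloured, and among genes of at least 10 CPM, Prkg2 at 2.63 and Eln at -3.11 lie farthest from 0.

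The largest rise among genes with at least 10 CPM was that of Prkg2, which encodes a cGMP-dependent protein kinase (chr5:99076863-99185470, minus strand, GRCm39). Its level was 5.64, 5.36 and 5.60 CPM in the Scramble A libraries and 29.3, 33.2 and 40.0 CPM in those of Scramble B. The groups were far apart, and the targeting siRNAs, with means of 3.03 to 8.32 CPM, lay near Scramble A. The log2 fold change was 2.63 ± 0.14 (SE, edgeR adjusted p = 1.72e-10).

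Egr1, an immediate early transcription factor gene (chr18:34992876-34998049, plus strand), stood at 28.8, 34.2 and 29.6 CPM with Scramble A and at 107, 174 and 69.9 CPM with Scramble B. All 3 Scramble B libraries were higher but spread widely, and the log2 fold change was 1.92 ± 0.23 (edgeR adjusted p = 5.6e-06). Mamdc2, which encodes an extracellular protein with MAM domains, rose by 1.69 ± 0.14 on the log2 scale, from 12.96, 14.8 and 16.4 CPM to 46.4, 37.3 and 59.3 CPM.

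The other 7 of the 10 largest rises were genes of DNA replication, repair or chromosome segregation, or of heterochromatin. Dtl, the substrate receptor that sends the licensing factor Cdt1 for degradation in S phase (chr1:191269468-191307669, minus strand), stood at 62.0, 69.7 and 67.9 CPM with Scramble A and 209, 189 and 214 CPM with Scramble B. The ranges were far apart, the targeting siRNAs had means of 69.7 to 129 CPM, and the log2 fold change was 1.61 ± 0.10 (edgeR adjusted p = 6.42e-10). Rad51ap1, a homologous recombination gene, rose by 1.49 ± 0.20, and Polq, the polymerase of theta-mediated end joining, by 1.43 ± 0.11. Cenpk, a subunit of the inner kinetochore, rose by 1.41 ± 0.15, Cdca5 (sororin, which holds sister chromatids together) by 1.37 ± 0.17, and the histone H3 lysine methyltransferase gene Suv39h1 by 1.37 ± 0.14. Mcm5, a subunit of the replicative helicase, rose by 1.41 ± 0.12 and is described with the replication genes.

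The largest fall was that of Eln, which encodes elastin (chr5:134731445-134776322, minus strand). Eln stood at 46.9, 27.0 and 40.9 CPM with Scramble A and at 4.14, 4.93 and 4.15 CPM with Scramble B. The Scramble B libraries were uniformly low and the Scramble A libraries spread, with the 2 highest values in libraries 1 and 3. The log2 fold change was -3.11 ± 0.26 (edgeR adjusted p = 5.37e-08) and -2.61 without those libraries, and means with the targeting siRNAs ranged from 7.25 to 25.9 CPM.

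Id4, a dominant inhibitor of basic helix-loop-helix transcription factors (chr13:48414558-48419502, plus strand), stood at 29.3, 26.0 and 32.9 CPM with Scramble A and at 6.31, 4.93 and 6.13 CPM with Scramble B. Here Scramble A was the group apart, above all 15 other libraries, since the targeting siRNAs had means of 7.97 to 14.9 CPM. The log2 fold change was -2.34 ± 0.21 (edgeR adjusted p = 1.31e-07).

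Nrp1, a co-receptor for class 3 semaphorins and VEGF (chr8:129085085-129231082, plus strand), stood at 92.0, 88.0 and 97.2 CPM with Scramble A and at 21.97, 22.6 and 22.4 CPM with Scramble B. The values were tight in both groups, and the log2 fold change was -2.05 ± 0.10 (edgeR adjusted p = 1.6e-10). Scramble B lay below all 15 other libraries, though Fmr1 siRNA A (37.3 CPM) and Zfp598 siRNA A (30.9 CPM) were also low, and Fmr1 siRNA B (103 CPM) was not.

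Of the other 7 of the 10 largest falls, Ache and the adjoining gene Ufsp1 were the ones for which Scramble A lay above, and Scramble B below, all 15 others. Ache, which encodes acetylcholinesterase (chr5:137285781-137292728, plus strand), stood at 269, 209 and 225 CPM with Scramble A and 73.1, 81.3 and 52.1 CPM with Scramble B, a log2 fold change of -1.77 ± 0.14 (edgeR adjusted p = 4.73e-08). Ufsp1, which encodes a UFM1-specific protease and lies just downstream on the same strand (chr5:137292891-137293927), fell by 1.80 ± 0.13 on the log2 scale. Reads that run past the end of Ache into Ufsp1 were not separated. Prima1, which encodes the membrane anchor of acetylcholinesterase and lies on another chromosome (chr12:103160706-103209030, minus strand), fell from 24.7 ± 2.99 to 7.82 ± 1.04 CPM, by 1.66 ± 0.14 on the log2 scale (edgeR adjusted p = 5.4e-08). Lrrn4 fell by 2.24 ± 0.16, the actin-associated PDZ-LIM gene Pdlim3 fell by 1.97 ± 0.11 and the secreted C1q-like gene C1ql1 fell by 1.92 ± 0.31. Adamtsl2, an extracellular protein gene, fell by 1.92 ± 0.19 and Neurl3, an E3 ubiquitin ligase gene, fell by 1.86 ± 0.19. Without libraries 1 and 3 of Scramble A the log2 fold changes were -1.47 for C1ql1, -1.605 for Adamtsl2 and -1.48 for Neurl3.

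**Figure D3:**
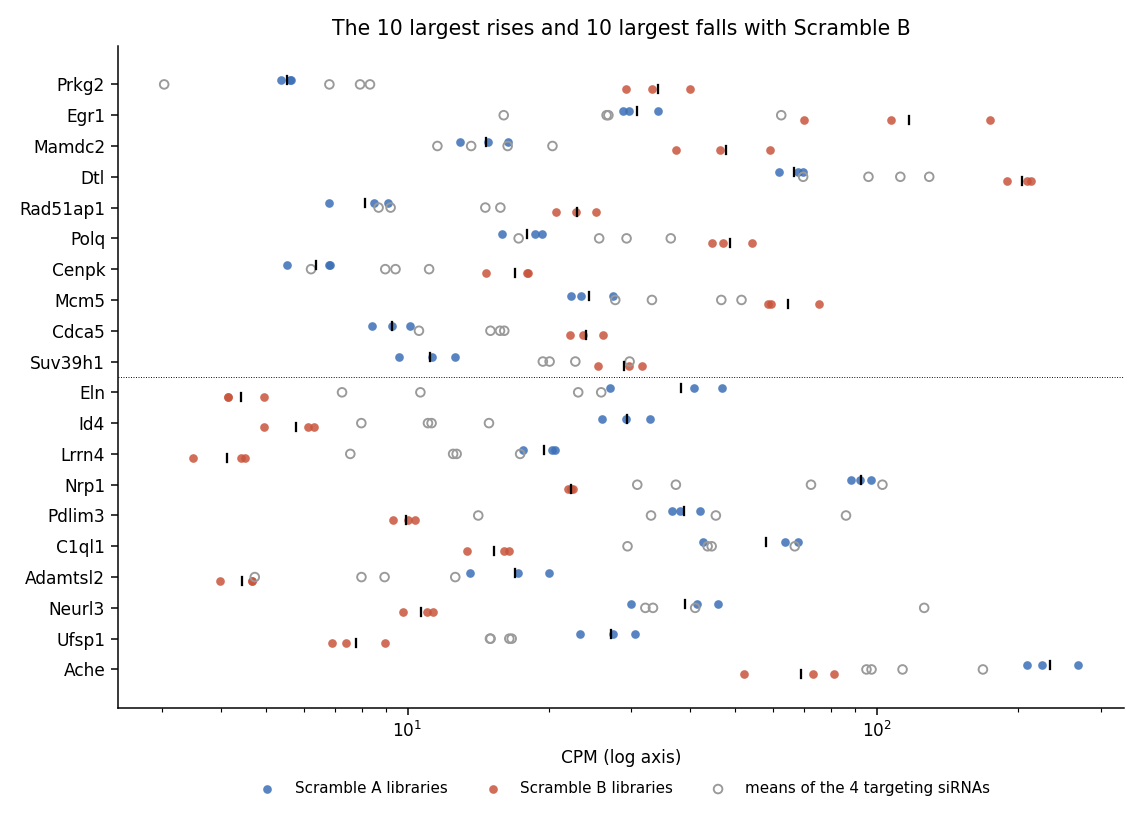
CPM on a log axis for the 10 genes with the largest rises (above the dotted line) and the 10 with the largest falls among genes with a mean of at least 10 CPM, with a point for each Scramble library, a black tick for each siRNA's mean of 3 and open circles for the means of the 4 targeting siRNAs. The Scramble A and B points do not overlap for any of the 20 genes, and for Id4, Ufsp1 and Ache, among others, all 4 open circles lie between them.

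At any level, only Gm7045, Gm12867 and Mir301 among called genes had larger fitted rises than Prkg2, and only 1110002J07Rik and Tshr larger fitted falls than Eln, with Jakmip3 next. Mir301 stood at 0, 0.132 and 0.213 CPM with Scramble A and 1.25, 0.508 and 0.830 CPM with Scramble B. It lies within Ska2, a gene of the spindle and kinetochore complex, which rose by 0.37 ± 0.11 on the log2 scale (edgeR adjusted p = 0.0167), and reads of the host's pre-mRNA cannot be told from those of the miRNA precursor. Mir301 had an edgeR adjusted p of 0.133 without libraries 1 and 3 of Scramble A. These values rest on few reads and carry no fold change here.

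Described by list, cell-cycle genes stood at the top of the order and cholesterol synthesis and neuronal genes at the bottom, around a median log2 fold change of -0.00 over all genes tested, whose middle 50% ran from -0.29 to 0.27. In bulk RNA a change in the share of cells in a state and a change in RNA per cell cannot be told apart, which applies to each list below.

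**Figure D4:**
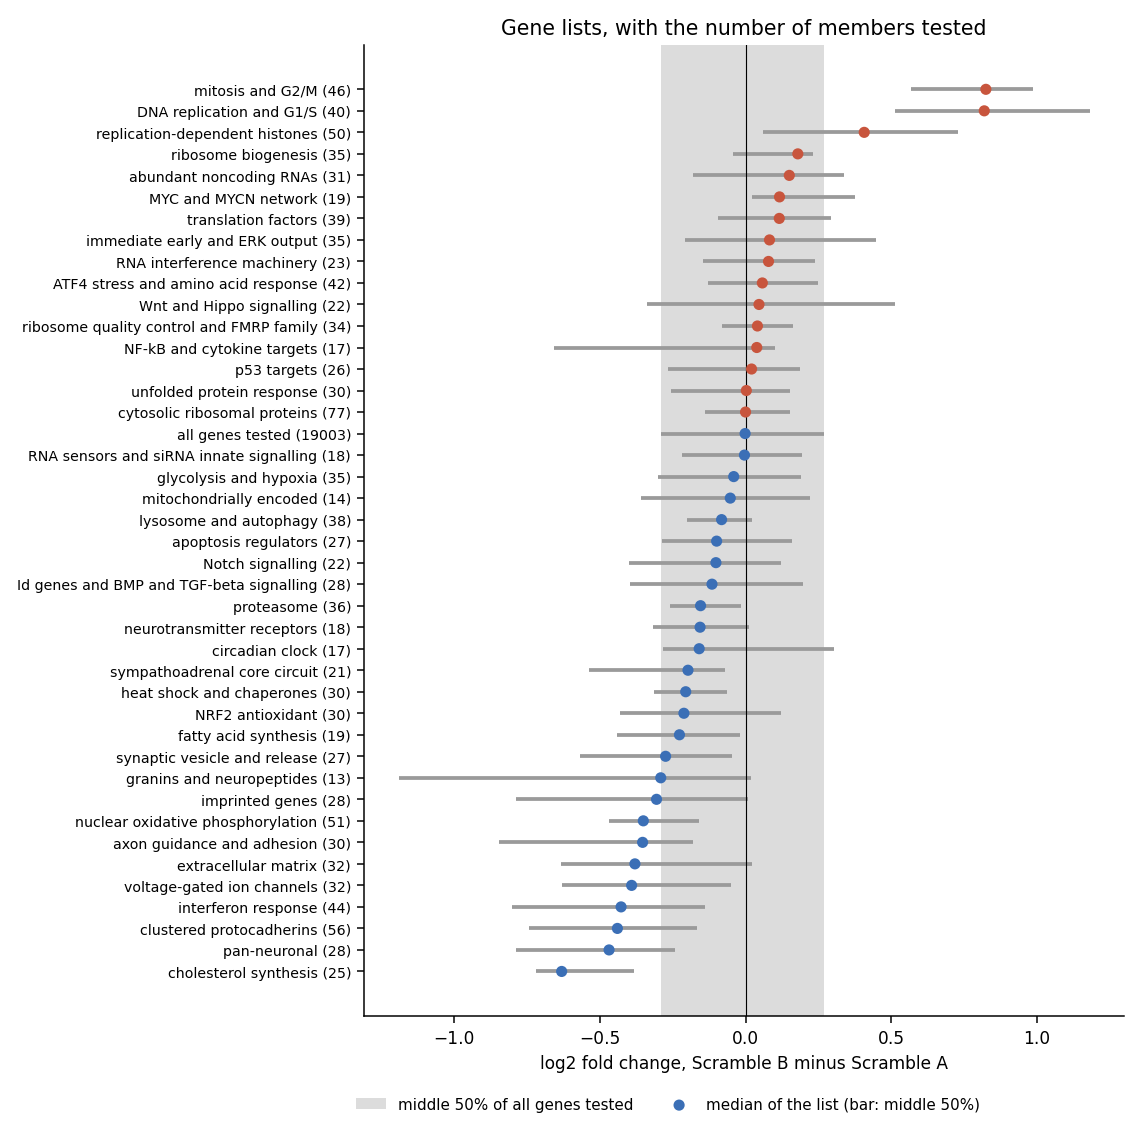
Points give the median log2 fold change, Scramble B minus Scramble A, of each list with at least 10 tested members, horizontal bars the middle 50% of its members, and the grey band the middle 50% of all genes tested. The mitosis and replication lists lie at 0.83 and 0.82, to the right of the band, and cholesterol synthesis lies farthest left at -0.63.

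Genes of DNA replication and the G1/S transition were higher with Scramble B. All 40 listed genes were tested and 36 rose, 15 of them by more than 2-fold, while 0 fell, and the median log2 fold change was 0.82 with a middle 50% of 0.51 to 1.18. Without libraries 1 and 3 of Scramble A the median was 0.83 and 30 rose. The helicase gene Mcm5 (chr8:75836140-75856231, plus strand) stood at 23.5, 22.3 and 27.4 CPM with Scramble A and 58.6, 59.6 and 75.5 CPM with Scramble B. The lowest Scramble B library was above the highest Scramble A library by a wide margin, and the log2 fold change was 1.41 ± 0.12 (edgeR adjusted p = 5.61e-08). Its partners Mcm3, Mcm4 and Mcm7 rose by 1.25 ± 0.15, 1.24 ± 0.14 and 1.19 ± 0.11. E2f8, a repressor of the E2F family that is itself induced in S phase, rose by 1.33 ± 0.21, and by 0.83 (edgeR adjusted p = 0.0465) without those libraries.

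Mitotic genes moved by a similar amount. All 46 were tested, 42 rose, 9 of them by more than 2-fold, and 0 fell, with a median of 0.83, and of 0.77 with 32 rising when libraries 1 and 3 of Scramble A were left out. Cdk1, the kinase that drives entry into mitosis (chr10:69170976-69236595, minus strand), stood at 71.1, 92.6 and 79.6 CPM with Scramble A and 165, 168 and 172 CPM with Scramble B. The groups did not overlap, the Scramble B libraries were nearly equal, and the log2 fold change was 1.05 ± 0.10 (edgeR adjusted p = 3.5e-07). Aurkb, the kinase of the chromosomal passenger complex, rose by 1.14 ± 0.14, the checkpoint kinase gene Bub1 by 1.11 ± 0.13 and the topoisomerase gene Top2a by 1.02 ± 0.08. Of 50 replication-dependent histone genes tested, 17 rose and 0 fell, with a median of 0.41, and 8 rose with a median of 0.64 without those libraries. Histone genes lack poly(A) tails and have near-identical copies, so how their reads were shared among copies is uncertain.

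Promoters of several lists were searched for short patterns of letters that the lists were not chosen by. The windows are RefSeq sequences on GRCm38.p6, from 250 bases before to 50 bases after each gene's start, and 11227 of the tested genes matched a promoter by symbol. The letters searched for E2F were TTTCCCGC, TTTGGCGC and TTTCGCGC, and those for the cell-cycle homology region (CHR) were TTTGAA and TTCGAA, each on both strands. An E2F match was found in 14 of 34 promoters of the replication list (41.2%), in 3.92% of the promoters of tested genes and in 2.12% of all 27025 promoters. A CHR match was found in 29 of 38 promoters of the mitosis list (76.3%), in 16.8% of those of tested genes and in 21.7% of all promoters. Among genes called higher with Scramble B, 12.4% of 145 promoters held an E2F match and 29.0% a CHR match, and among genes called lower, 3 of 246 (1.22%) held an E2F match and 27 of 246 a CHR match. A match describes letters, not a bound site. Stretches upstream of Mcm5 and Cdk1 are shown for these letters, in capitals. The first spans chr8:75109326-75109393 (plus strand) and the second chr10:69352948-69353013 (minus strand), both on GRCm38.p6, and in Mcm5 the capitals hold TTTCGCGC overlapping the reverse complement of TTTGGCGC.
Mcm5: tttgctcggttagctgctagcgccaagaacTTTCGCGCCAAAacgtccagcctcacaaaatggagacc
Cdk1: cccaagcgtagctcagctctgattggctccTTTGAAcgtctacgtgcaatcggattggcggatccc

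List scores, the mean of log2(CPM + 0.5) over the tested members, show where the Scramble siRNAs lay among all 18 libraries. The replication score was 4.32, 4.32 and 4.45 with Scramble A and 5.14, 5.06 and 5.35 with Scramble B. By the mean of 3 libraries Scramble A was the lowest of the 6 siRNAs and Scramble B the highest, with library scores of the targeting siRNAs from 4.50 to 5.07. The mitosis score was 4.93, 5.07 and 5.10 with Scramble A and 5.75, 5.70 and 5.90 with Scramble B. Fmr1 siRNA A, at 4.70 to 4.74, lay below Scramble A.

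**Figure D5:**
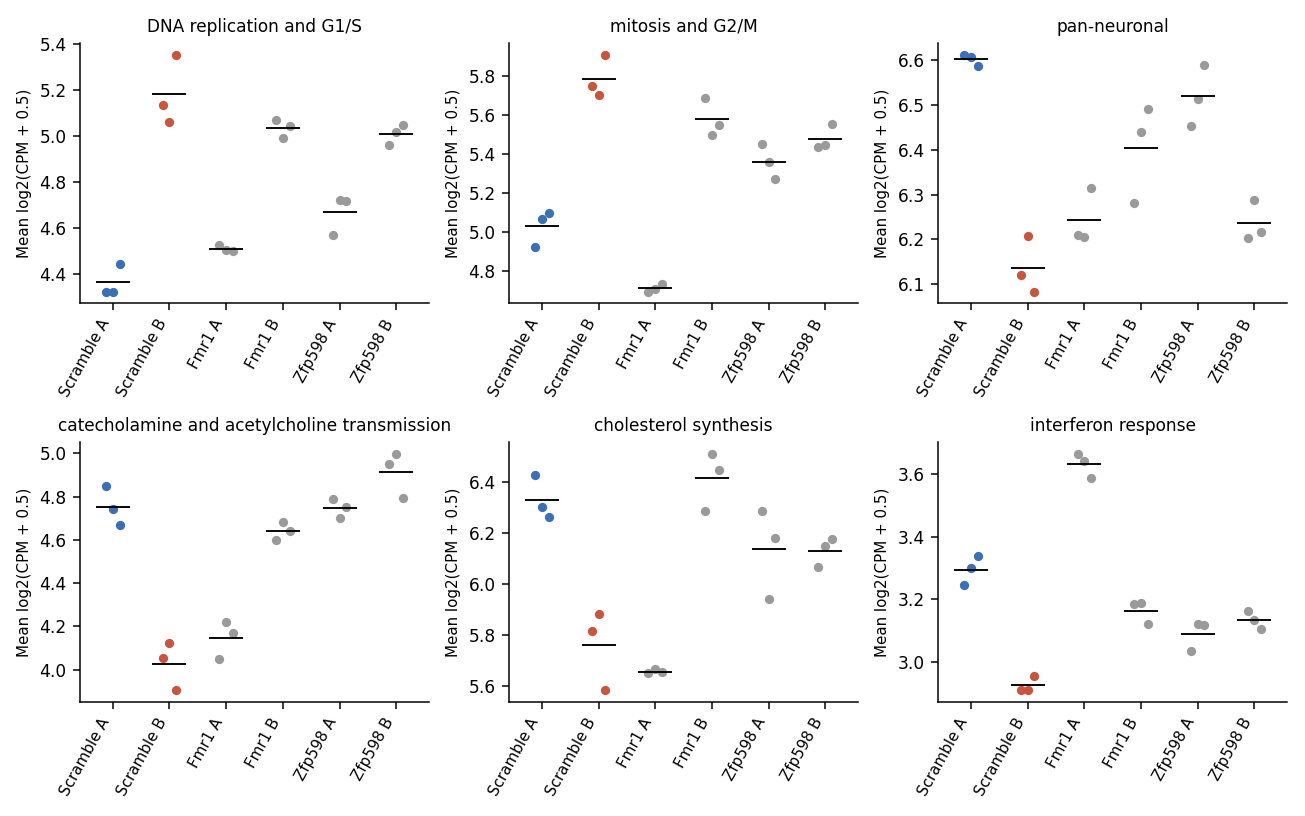
Each panel plots a list score, the mean log2(CPM + 0.5) of its tested members, for the 18 libraries by siRNA, with a bar at each mean of 3 and a vertical axis that does not start at 0. Scramble A and B points do not overlap in any of the 6 panels: Scramble B is higher for replication and mitosis and lower for the pan-neuronal, transmitter, cholesterol and interferon lists.

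Neuronal genes were lower with Scramble B. Of 28 pan-neuronal genes tested, 15 fell, 4 of them by more than 2-fold, and 1 rose, with a median of -0.47. The summed level of the 30 markers was 9620 to 12014 TPM in the Scramble A libraries and 7607 to 8238 TPM in those of Scramble B. Without libraries 1 and 3 of Scramble A, 7 fell and the median was -0.34. Celf3, a neuronal splicing regulator (chr3:94385602-94399505, plus strand), stood at 142, 140.3 and 143 CPM with Scramble A and 71.5, 74.0 and 62.5 CPM with Scramble B. Both groups were tight and did not overlap, and the log2 fold change was -1.03 ± 0.10 (edgeR adjusted p = 3.52e-07). Gap43, a growth cone protein gene, fell by 0.88 ± 0.13 on the log2 scale and the microtubule regulator gene Stmn2 by 0.70 ± 0.09.

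Stmn3, a paralog of Stmn2, followed the libraries that stood apart. It stood at 454, 202 and 382 CPM with Scramble A and 168, 169 and 160.1 CPM with Scramble B. Libraries 1 and 3 of Scramble A were high and library 2 was near Scramble B. The log2 fold change was -1.06 ± 0.30 (edgeR adjusted p = 0.0146), and -0.28 (edgeR adjusted p = 0.789) without libraries 1 and 3. The neurofilament gene Nefh (-1.27 ± 0.23), the prohormone gene Pcsk1n (-1.04 ± 0.31) and Phox2a (-1.04 ± 0.20) were also highest in libraries 1 and 3. Their library 2 values, 35.9, 126.5 and 107 CPM, still lay above every Scramble B library. Without libraries 1 and 3, which leaves 1 Scramble A library, the log2 fold changes were -0.81 for Nefh, -0.35 for Pcsk1n and -0.57 for Phox2a. Each was short of 2-fold in that fit. The most-counted feature took its larger share in libraries 1 and 3 of Scramble A. With that share as a covariate over all 18 libraries, the log2 fold change was -0.56 for Stmn3 and -0.77 for Phox2a (edgeR adjusted p = 5.79e-06 and 1.96e-07). It was -0.96 for Nefh and -0.56 for Pcsk1n (edgeR adjusted p = 6.33e-08 and 0.000192).

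Genes of catecholamine and acetylcholine transmission were lower with Scramble B, with or without those libraries. Of 9 tested, 5 fell, 3 of them by more than 2-fold, and 0 rose, with a median of -0.90, and of -0.95 with 5 falling without libraries 1 and 3 of Scramble A. Beside Ache, the nicotinic receptor subunit gene Chrna3 fell by 1.05 ± 0.12 on the log2 scale and Ddc, which converts L-DOPA to dopamine, by 1.32 ± 0.25. Slc18a2, the vesicular monoamine transporter gene (chr19:59249238-59284695, plus strand), stood at 139.7, 142 and 128 CPM with Scramble A and 78.0, 80.1 and 60.9 CPM with Scramble B. The groups did not overlap, and the fall was 0.90 ± 0.10 on the log2 scale (edgeR adjusted p = 2.58e-06), short of 2-fold. Th fell by 0.90 ± 0.16, and Dbh, which makes noradrenaline, changed by -1.01 ± 0.39 (edgeR adjusted p = 0.0737). Chrna5 overlaps the end of Chrna3 on the opposite strand and fell by 1.36 ± 0.26. Without a stated strand setting, reads from the shared stretch cannot be assigned.

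Secretory granule genes were split. Of 13 tested, 5 fell, each by more than 2-fold, and 0 rose (median -0.29), and 2 fell without libraries 1 and 3 of Scramble A (median -0.28). Of those that no longer passed, Ppy (-0.97, edgeR adjusted p = 0.212) and Pcsk2 (-1.03, edgeR adjusted p = 0.0670) kept log2 fold changes near -1 and Pcsk1n did not. Chgb (chromogranin B, chr2:132622464-132637904, plus strand) stood at 297, 373 and 282 CPM with Scramble A and 93.5, 121 and 102 CPM with Scramble B, a log2 fold change of -1.59 ± 0.13 (edgeR adjusted p = 4.14e-08). Chga (chromogranin A) fell from 131 ± 7.78 to 57.5 ± 2.89 CPM, by 1.19 ± 0.10. Both were below the Scramble A level in every Scramble B library. The most abundant members, by contrast, were not told apart by the test: Vgf had a log2 fold change of 0.10 ± 0.15 and Scg2 of 0.03 ± 0.10 (edgeR adjusted p = 0.687 and 0.871). Among the core-circuit genes 7 of 21 fell and 2 rose, against 3 and 1 without libraries 1 and 3 of Scramble A (median -0.20 and -0.19). Ret was one of those that rose, with 806, 751 and 692 CPM for Scramble A and 1362, 1389 and 1083 CPM for Scramble B, a rise of 0.77 ± 0.10 (edgeR adjusted p = 1.14e-05).

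Several other neuronal lists had negative medians. Of 30 axon guidance and adhesion genes, 15 fell and 1 rose (median -0.35), including, beside Nrp1, the plexin gene Plxna4 at 137, 144 and 140.1 CPM with Scramble A and 56.8, 57.7 and 58.3 CPM with Scramble B (-1.28 ± 0.10, edgeR adjusted p = 1.96e-08) and the netrin receptor gene Unc5a (-1.06 ± 0.15). Of 32 voltage-gated ion channel genes 12 fell and 0 rose (median -0.39), and of 27 synaptic vesicle genes 13 fell and 1 rose (-0.27). Without libraries 1 and 3 of Scramble A, 9, 7 and 7 of these lists' genes fell, with medians of -0.39, -0.38 and -0.30. The neurotransmitter receptor list was near the background, with 2 of 18 falling and 1 rising (median -0.16). Of 56 clustered protocadherin genes 20 fell and 0 rose (-0.44), and 3 fell without libraries 1 and 3 of Scramble A, at a median of -0.47. These genes share exons within each cluster, so reads could be divided between members. In the other direction, the progenitor filament gene Vim (chr2:13578738-13587639, plus strand) stood at 815, 799.9 and 725 CPM with Scramble A and 1635, 1638 and 1475 CPM with Scramble B, a rise of 1.02 ± 0.08 (edgeR adjusted p = 4.14e-08), and Lin28a rose by 0.80 ± 0.10. Of the 7 tested members of the progenitor list, Vim alone rose and 1 fell.

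Extracellular matrix genes fell in 15 of 32 cases and rose in 1 (median -0.38), and 5 fell without libraries 1 and 3 of Scramble A (median -0.23). Of 28 imprinted genes 9 fell and 1 rose (median -0.31), and 5 fell without those libraries (median -0.26). They were led among abundant ones by Peg10, a retrotransposon-derived gene expressed from the paternal allele, which stood at 372, 434 and 347 CPM with Scramble A and 177, 214 and 141 CPM with Scramble B. Scramble A was above all 15 other libraries for Peg10, and the log2 fold change was -1.12 ± 0.13 (edgeR adjusted p = 3.38e-06).

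Genes of cholesterol synthesis were lower with Scramble B by a modest and broad amount. Of 25 tested, 19 fell, 2 of them by more than 2-fold, and 0 rose, with a median of -0.63, and 10 fell with a median of -0.56 without libraries 1 and 3 of Scramble A. Acat2, a cytosolic thiolase that condenses acetyl-CoA (chr17:13161367-13179641, minus strand), stood at 98.2, 84.7 and 85.6 CPM with Scramble A and 41.8, 38.4 and 31.3 CPM with Scramble B. The groups were well apart, and the log2 fold change was -1.27 ± 0.14 (edgeR adjusted p = 1.97e-06). Tm7sf2, a sterol reductase gene, fell by 1.13 ± 0.15, and by 0.72 (edgeR adjusted p = 0.0225) without those libraries. The cholesterol score was 6.43, 6.30 and 6.26 with Scramble A and 5.81, 5.88 and 5.58 with Scramble B, while Fmr1 siRNA A was at 5.65 to 5.66 and Fmr1 siRNA B at 6.28 to 6.51. Fatty acid synthesis showed 5 falls and 1 rise among 19 genes. Among 51 nuclear genes of oxidative phosphorylation 21 fell and 0 rose (median -0.35), but 4 fell (median -0.12) without libraries 1 and 3 of Scramble A.

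Interferon-stimulated genes were at low levels with both controls and lower with Scramble B. Of 44 tested, 15 fell, 4 of them by more than 2-fold, and 1 rose, with a median of -0.43, and 2 fell without libraries 1 and 3 of Scramble A, at a median of -0.48. Cmpk2, a mitochondrial nucleotide kinase induced by interferon (chr12:26519203-26529836, plus strand), stood at 11.1, 9.01 and 10.9 CPM with Scramble A and 3.22, 3.27 and 4.02 CPM with Scramble B. The groups did not overlap, and the log2 fold change was -1.55 ± 0.18 (edgeR adjusted p = 2.71e-06). Parp14, an ADP-ribosyltransferase gene, fell by 1.34 ± 0.19. Isg15, the ubiquitin-like modifier (chr4:156283883-156285303, minus strand), stood at 3.53, 3.51 and 3.69 CPM with Scramble A and 1.32, 1.74 and 1.98 CPM with Scramble B, against 12.7 CPM with Fmr1 siRNA A and 1.76 to 2.27 CPM with the other 3 targeting siRNAs. Scramble A was the higher control and Fmr1 siRNA A higher still, and the fall was 1.09 ± 0.24 (edgeR adjusted p = 0.00302), with -1.06 (edgeR adjusted p = 0.0685) without libraries 1 and 3 of Scramble A. Ifit1, which binds foreign RNA ends, fell by 1.00 ± 0.30 (edgeR adjusted p = 0.0221), with -0.64 (edgeR adjusted p = 0.480) without those libraries and -0.82 (edgeR adjusted p = 0.0639) with the share of the most-counted feature as a covariate. The chemokine gene Cxcl10 fell by 1.04 ± 0.32 (edgeR adjusted p = 0.0257), with -0.97 (edgeR adjusted p = 0.235) without those libraries. Interferon scores of single libraries were 3.24 to 3.34 with Scramble A, 2.91 to 2.95 with Scramble B and 3.03 to 3.66 with the targeting siRNAs, so Scramble B was the lowest.

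The interferon-stimulated response element (ISRE) was searched as GAAA, any 2 bases, then GAAA, on both strands. It was found in 14 of 34 interferon-list promoters (41.2%), in 3.38% of those of tested genes and in 3.99% of all promoters. The stretches of Isg15, chr4:156200857-156200926 (minus strand), and Ifit1, chr19:34640755-34640824 (plus strand), both on GRCm38.p6, are shown because the capitals mark the matches, which overlap in Isg15 and lie on the opposite strand in Ifit1.
Isg15: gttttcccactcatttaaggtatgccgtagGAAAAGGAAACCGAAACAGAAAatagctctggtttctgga
Ifit1: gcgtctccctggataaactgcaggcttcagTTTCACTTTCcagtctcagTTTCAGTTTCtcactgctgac

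Genes that sense double-stranded RNA or carry out RNA interference moved in both directions. Of 18 RNA sensor and innate signalling genes 4 rose and 3 fell (median -0.00), with 0 of either without libraries 1 and 3 of Scramble A (median -0.10), and of 23 RNA interference genes 5 rose and 4 fell (median 0.08). The DNA sensor gene Cgas passed 2-fold at a low level, from 1.25 ± 0.558 to 2.69 ± 0.724 CPM, with 3.09, 3.12 and 1.85 CPM in the Scramble B libraries and 0.617, 1.66 and 1.49 CPM in those of Scramble A (1.05 ± 0.36, edgeR adjusted p = 0.0439). Without libraries 1 and 3 of Scramble A its log2 fold change was 0.69 (edgeR adjusted p = 0.502).

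Immediate early genes moved in both directions. Of 35 tested, 10 rose and 5 fell (median 0.08), against 3 and 1 without libraries 1 and 3 of Scramble A (median 0.16). Egr2 and Egr3 rose with Egr1, by 1.60 ± 0.37 and 1.14 ± 0.24, and Egr2 was at 1.23 (edgeR adjusted p = 0.214) without libraries 1 and 3 of Scramble A. In contrast Jun, a subunit of AP-1 (chr4:94937271-94940459, minus strand), stood at 91.9, 82.5 and 84.5 CPM with Scramble A and 31.7, 41.5 and 32.6 CPM with Scramble B, a fall of 1.29 ± 0.11 (edgeR adjusted p = 1.13e-07). Jund fell by 1.52 ± 0.24, from 199, 107 and 159 CPM to 49.9, 60.4 and 51.2 CPM, and by 0.98 (edgeR adjusted p = 0.0544) without libraries 1 and 3. Fos changed by 0.54 ± 0.20 (edgeR adjusted p = 0.0556).

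Developmental signalling lists held single genes rather than list-wide shifts. In the Notch list 2 of 22 rose and 4 fell. The receptor gene Notch1 fell by 1.02 ± 0.22 and the ligand gene Dll1 by 1.24 ± 0.38, whereas the feedback inhibitor gene Nrarp rose by 1.45 ± 0.49. Dll1 and Nrarp were at or near 1 CPM, and without libraries 1 and 3 of Scramble A their log2 fold changes were -0.38 and 2.10 (edgeR adjusted p = 0.812 and 0.170). The Wnt ligand gene Wnt7b stood at 1.85, 2.52 and 3.05 CPM with Scramble A and 5.46, 7.26 and 10.1 CPM with Scramble B (1.61 ± 0.25, edgeR adjusted p = 8.71e-05), and Scramble B was above all 15 other libraries. Of 28 genes of Id proteins and BMP and TGF-beta signalling, 6 rose and 3 fell, and Id2 (1.00 ± 0.32) and Id4 moved in opposite directions. Without libraries 1 and 3 of Scramble A, Id2 was at 1.28 (edgeR adjusted p = 0.0963).

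Genes of heat shock and chaperones and of the NRF2 antioxidant response leaned lower, each with a median of -0.21. Of 30 heat shock genes 9 fell and 1 rose, and of 30 NRF2 genes 9 fell and 5 rose, and without libraries 1 and 3 of Scramble A 6 and 2 fell, with medians of -0.21 and -0.19. Lists with medians nearer 0 follow. Of 77 cytosolic ribosomal protein genes 3 rose and 1 fell (median 0.00). Of 39 translation factors 13 rose and 3 fell (median 0.12), and the initiation factor gene Eif2s3x passed 2-fold, from 55.9, 67.0 and 61.3 CPM to 130.0, 123 and 132 CPM (1.06 ± 0.13, edgeR adjusted p = 4.04e-06). For Eif2s3x Scramble A was below all 15 other libraries. In the MYC list 6 of 19 rose and 0 fell, with Mycl at 1.11 ± 0.20, while the Scramble A and B values of Mycn overlapped (0.42 ± 0.15, edgeR adjusted p = 0.0462). Of 34 genes of ribosome quality control and the FMRP family 3 rose and 2 fell (median 0.04), and of 26 p53 targets 2 rose and 5 fell (median 0.02), with Gtse1, which also acts in mitosis, as the member above 2-fold (1.27 ± 0.15). The ATF4 list had 10 rises and 3 falls among 42, and the unfolded protein response list 3 and 5 among 30.

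The same A and B labels on the Fmr1 and Zfp598 siRNAs name different molecules. Those pairs share no library with the Scramble pair, so they show how far libraries given different siRNAs to 1 gene differ. With the same rule 777 genes (4.09%) were called between Fmr1 siRNAs B and A and 1444 (7.6%) between Zfp598 siRNAs B and A, against 662 for the Scramble pair. The Scramble and Fmr1 pairs shared 44 genes called higher with B, which is 16.4% of the 268 and 7.09% of the 621 of the Fmr1 pair, where the 621 are 3.27% of the genes tested. A further 16 were lower in both (4.06% of the 394, 10.3% of 156, which are 0.821% of the genes tested), 35 were lower in the Scramble pair and higher in the Fmr1 pair (8.88% of the 394, 5.64% of the 621) and 1 was the reverse. The Scramble and Zfp598 pairs shared 67 genes called lower with B, which is 17.005% of the 394 and 8.51% of the 787, where the 787 are 4.14% of the genes tested. A further 18 were higher in both (6.72% of the 268, 2.74% of 657, which are 3.46% of the genes tested), 12 were higher in the Scramble pair and lower in the Zfp598 pair (4.48% of the 268) and 21 were the reverse (5.33% of the 394). Libraries 2 and 3 of Zfp598 siRNA A gave 15.2% and 25.8% of their counts to the most-counted feature, and library 1 gave 5.67%. The Zfp598 siRNA B libraries gave it 5.40% to 7.92%. In the Zfp598 pair the log2 fold change was -1.01 for Stmn3, -1.22 for Nefh, -1.05 for Pcsk1n and -0.41 for Phox2a. How many of the shared genes follow that feature was not tested. The replication list had a median log2 fold change, B minus A, of 0.82 for Scramble, 0.50 for Fmr1 and 0.42 for Zfp598, and the mitosis list 0.83, 0.87 and 0.18. Cholesterol synthesis had -0.63, 0.78 and 0.05, so the Scramble and Fmr1 pairs had opposite signs. The interferon list had -0.43, -0.37 and 0.12, and the catecholamine and acetylcholine list -0.90, 0.51 and -0.13.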

How the data were processed

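RNA-seq was made from N2A cells at 72 h (6 siRNAs, 3 libraries each). The authors deposited raw counts per gene; per the labels, reads were trimmed with Trim Galore, checked with FastQC, aligned with STAR to GRCm39 and counted with featureCounts. Versions, annotation release, strand and multimapping settings are not given in the sources used here. From the counts as deposited, edgeR 4.0.16 (R 4.3.3, limma 3.58.1) fitted the 6 siRNA groups over 18 libraries (TMM, filterByExpr with a minimum count of 10 and total of 15, common biological coefficient of variation 11.6%, quasi-likelihood test, Benjamini-Hochberg adjustment). A call needed an adjusted p under 0.05 and over 2-fold. CPM used TMM library sizes. TPM used exon lengths of GENCODE release 39 (98.8% of features matched), as did coordinates. Tables were made with Python 3.11.15, pandas 2.3.3 and numpy 2.4.6. The fit was tested on simulated data. Same-numbered A and B libraries did not deviate together. Alternatives were DESeq2 1.42.0, other scalings and filters, the 6 libraries alone, a replicate block and libraries left out.

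Genes were named by a rule: the 10 largest rises and falls at a mean of 10 CPM or more, the 4 largest at any level, the 15 highest by TPM, up to 6 called members of each list, cell type markers and the siRNA targets. Mcm3, Mcm4, Mcm7, Top2a, Prima1, Chrna5, Ska2, Fos, Cenpp, Aspn, Ecm2, Omd and Ogn were named after their values were seen. The comparison, the lists and the rule were chosen with earlier results of these data known.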

Additional observations from a re-analysis of the deposited data

How the results depend on the processing

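Of 2443 alternative values of 137 named genes, 2265 kept their side of the threshold. A further 152 no longer passed, 26 newly passed and 0 passed in the opposite direction. Genes that were not called could change sign. The log2 fold change of mt-Co1 was 0.44 in the main fit and -0.16 without libraries 1 and 3 of Scramble A, and that of Atf4 was -0.29 and 0.08. The 662 calls (268 higher, 394 lower) became 328 (129 and 199) without libraries 1 and 3 of Scramble A, which leaves 1 library in that arm, 1939 (798 and 1141) at 1.5-fold and 4003 (1802 and 2201) with no size criterion. Leaving out each library in turn gave 502 to 909 calls, 205 to 442 higher and 297 to 467 lower, and the 442 came without library 2 of Scramble A. At an unadjusted p under 0.05, 6292 genes (33.1%) differed. DESeq2 gave 275 higher and 380 lower, and scaling by total counts, which shifted the median of all genes by 0.055, gave 300 and 302. With replicate number as a block there were 277 higher and 403 lower calls. The labels share numbers only, and the correlations of the deviations of same-numbered libraries were -0.0029, 0.028 and 0.098, so no pairing was used. Genes under 50 counts were measured with the least precision.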

Other observations

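A stretch of chromosome 13 held a run of called genes, noticed after the values were seen. Aspn, Ecm2, Omd and Ogn, which encode extracellular matrix proteins of the leucine-rich repeat type, were each called higher with Scramble B. All lie inside Cenpp, a kinetochore gene on the opposite strand (chr13:49617492-49806396, GRCm39). Aspn stood at 0.617, 0.993 and 0.638 CPM with Scramble A and 2.83, 3.34 and 2.94 CPM with Scramble B, and its log2 fold change was 1.98 ± 0.36 (edgeR adjusted p = 0.000364). Ecm2, Omd and Ogn changed by 1.32 ± 0.24, 1.31 ± 0.36 and 1.27 ± 0.32. Cenpp stood at 5.73, 4.04 and 2.84 CPM with Scramble A and 7.17, 8.20 and 8.88 CPM with Scramble B, and rose by 0.96 ± 0.22 (edgeR adjusted p = 0.00355), short of 2-fold. The 4 genes and their host moved in the same direction, and reads of the host's introns cannot be told from theirs without the strand setting, which was not tested.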
